A study of Mus musculus with 2 samples.

Results

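The genes described here are 48 cell cycle genes, 48 of the 17790 genes in the count table, taken by name. They were read in 3 sets that were kept apart: 29 genes of G2 and mitosis, 17 genes of the start of S phase and DNA synthesis, and Stmn1 and Cdkn2c. The data are single-cell RNA counts from lung adenocarcinoma of C57BL/6 mice, in which tumour cells were separated on CD45 beads, giving a CD45-negative library of 3957 cells and a CD45-positive library of 11432 cells. CD45, encoded by Ptprc, is the surface protein of leukocytes. Both libraries came from microdissected, dissociated tumours. The sources used here do not give the tumour genotype, the age and sex of the mice or how many were pooled, and each fraction was 1 library. The deposited cell table assigns every cell to 1 of 7 classes: AT2 (the surfactant-making alveolar type II cells), AT1 (flat alveolar type I cells), Ciliated, Endothelial, Fibroblast, Erythrocyte and Immune. The Fibroblast class may hold mesothelial cells, which was not measured here, and the class is called by its deposited name.

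A dividing cell runs through a fixed order of transcription. Genes for licensing and copying DNA, such as those of the MCM helicase and the sliding clamp Pcna, are switched on by E2F factors from late G1, and genes of chromosome condensation, spindle and cytokinesis follow in G2 under the B-MYB, MuvB and FOXM1 factors. Resting cells keep the second set low, while several replication genes are also read at a low level outside division. In the adult lung most AT1, ciliated and endothelial cells rest, and AT2 cells, T cells and some macrophages can divide in place.

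The G2/M genes were Mki67, Top2a, Cdk1, Cenpf, Cenpa, Cenpe, Birc5, Ccnb1, Ccnb2, Ccna2, Cdc20, Ube2c, Prc1, Pbk, Tpx2, Aurka, Aurkb, Bub1, Bub1b, Plk1, Kif11, Kif20b, Kif23, Nusap1, Hmmr, Cdca3, Cdca8, Cks1b and Cks2. The S genes were Ccne1, Ccne2, Mcm2, Mcm3, Mcm4, Mcm5, Mcm6, Mcm7, Pcna, Rrm1, Rrm2, Tyms, Tk1, Gins2, Uhrf1, Cdc6 and Cdt1. Stmn1, which encodes a microtubule-destabilising protein, and Cdkn2c, which encodes an inhibitor of the cyclin D kinases, were not counted in either set.

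The promoters of both sets are shown as a description of sequence, and whether a motif bears on the level of a member was not tested. RefSeq promoter windows from 250 bases before to 50 bases after the annotated start (build GRCm38.p6) were found for 40 of the 48 genes, as 26 windows for 25 G2/M genes, 16 windows for 14 S genes and 2 for Cdkn2c. Each window was searched on both strands for CCAAT, the box bound by NF-Y; for TTTGAA and TTCGAA, forms of the element known as CHR through which MuvB complexes bind; and for TTGGCGC and GCGGGAA, forms of an E2F site. TTGGCGC can share bases with a reverse CCAAT, and every match was counted. CCAAT was in 88.5% of the G2/M windows and 68.8% of the S windows, beside 37.4% of all 32851 windows of the same length. TTTGAA or TTCGAA was in 80.8% of the G2/M windows and 12.5% of the S windows, beside 19.2% of all. CCAAT together with TTTGAA or TTCGAA was in 76.9% of the G2/M windows, 12.5% of the S windows and 7.52% of all. TTGGCGC or GCGGGAA had the other distribution, at 11.5% of the G2/M windows, 56.2% of the S windows and 6.81% of all. A match is a run of letters and not a bound site.

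The 120 bases before the start are given for 4 G2/M genes and 2 S genes, chosen after the search because they hold 2 kinds of match or more, with the matches on either strand in capitals. On the reverse strand the CCAAT box reads ATTGG, the first CHR form reads TTCAAA, and the second E2F form reads TTCCCGC. They lie at chr11:99024190-99024309 (Top2a, minus strand), chr10:69352913-69353032 (Cdk1, minus), chr2:164769809-164769928 (Ube2c, plus), chr3:89418292-89418411 (Cks1b, minus), chr1:128359706-128359825 (Mcm6, minus) and chr7:102441575-102441694 (Rrm1, plus). The 4 G2/M stretches hold both CCAAT and TTTGAA, and the 2 S stretches hold CCAAT and an E2F form without TTTGAA. Not all abundant members do: the same stretch holds CCAAT alone in Cks2, Cenpa and Pcna, and none of these motifs in Birc5 and Tyms.
Top2a: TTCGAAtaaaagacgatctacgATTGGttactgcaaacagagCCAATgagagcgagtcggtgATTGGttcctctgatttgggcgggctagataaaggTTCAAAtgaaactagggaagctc
Cdk1: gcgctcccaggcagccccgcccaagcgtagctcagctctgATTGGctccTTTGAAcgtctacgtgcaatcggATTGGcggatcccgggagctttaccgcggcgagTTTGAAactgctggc
Ube2c: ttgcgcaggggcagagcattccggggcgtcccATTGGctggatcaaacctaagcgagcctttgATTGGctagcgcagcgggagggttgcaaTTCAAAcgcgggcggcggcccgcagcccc
Cks1b: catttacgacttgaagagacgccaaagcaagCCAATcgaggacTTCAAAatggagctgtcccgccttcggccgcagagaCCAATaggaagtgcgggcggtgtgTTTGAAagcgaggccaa
Mcm6: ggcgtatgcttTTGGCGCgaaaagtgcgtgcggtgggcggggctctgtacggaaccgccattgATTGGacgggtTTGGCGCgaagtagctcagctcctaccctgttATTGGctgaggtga
Rrm1: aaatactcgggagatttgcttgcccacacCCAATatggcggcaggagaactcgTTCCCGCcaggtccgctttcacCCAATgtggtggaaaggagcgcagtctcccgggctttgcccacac

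The libraries differed in depth and content. The CD45-negative cells had a median of 7710 unique molecular identifiers (UMI, each a counted mRNA molecule) and the CD45-positive cells 3376, and 57 cell barcodes were shared between the libraries. Immune cells were 2.73% of the CD45-negative library and 65.1% of the CD45-positive one. Within the CD45-positive library, AT2 sub-clusters of 509 and 403 cells and Endothelial sub-clusters of 498, 517, 165 and 90 cells were led by leukocyte genes, and in the CD45-negative library 185 cells of the AT2 class were led by endothelial genes. A class is therefore not compared between libraries: values of both libraries stand side by side. With 1 library per fraction no difference could be tested, and the 95% intervals below cover counting error only.

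The 48 genes held 31769 UMI of the CD45-negative library (0.0777% of its UMI) and 43074 UMI of the CD45-positive library (0.0907%). Stmn1 alone gave 18852 UMI over both. Among the G2/M genes the largest counts were those of Cks2 (5918 UMI) and Cks1b (4826 UMI), small proteins that bind cyclin-dependent kinases, Cenpa (3066 UMI), the histone H3 variant of centromeres, Ube2c (2934 UMI), which hands ubiquitin to mitotic cyclins, Top2a (2614 UMI), the topoisomerase that untangles sister DNA, and Birc5 (2257 UMI), the survivin subunit of the chromosomal passenger complex. The smallest were those of Aurka (321 UMI), a spindle pole kinase, Kif11 (306 UMI), a spindle motor, and Bub1 (178 UMI), a checkpoint kinase. Among the S genes Pcna (2672 UMI), Mcm6 (1770 UMI), Tyms (1544 UMI), Mcm7 (1341 UMI), Rrm1 (1220 UMI) and Mcm3 (1098 UMI) led, and the cyclins Ccne1 (224 UMI) and Ccne2 (175 UMI) and the licensing factor Cdc6 (111 UMI) were lowest. Counts of 3′ tags do not scale with transcript length, so these totals can be set beside each other within the table.

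Cells that met a rule for dividing cells were found in all but 1 of the 14 class and library groups, with ciliated cells among them as background. A cell was called cycling when Mki67, Top2a, Cdk1 and Cenpf together had at least 3 UMI. Mki67 coats mitotic chromosomes, Cdk1 drives entry into mitosis and Cenpf sits at kinetochores. In the CD45-negative library 124 cells (3.13%, interval 2.61 to 3.72) met the rule, and in the CD45-positive library 433 cells did (3.79%, interval 3.45 to 4.15). Cycling AT2 cells numbered 57 of 1677 in the CD45-negative library (3.40%, interval 2.58 to 4.38) and 20 of 1324 in the CD45-positive library (1.51%, interval 0.925 to 2.32). Cycling Endothelial cells numbered 32 of 1249 (2.56%, interval 1.76 to 3.60) and 40 of 2172 (1.84%, interval 1.32 to 2.50). Immune cells of the CD45-positive library had 362 of 7438 (4.87%, interval 4.39 to 5.38), and the 108 Immune cells that stayed in the CD45-negative library had 19 (17.6%, interval 10.9 to 26.1).

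The other classes were small. AT1 had 8 of 285 and 2 of 120 cycling cells in the CD45-negative and CD45-positive libraries, Fibroblast 6 of 356 and 8 of 171, and Erythrocyte 1 of 174 and 0 of 91, where 3 cells of the 91 would be a share of 3.30% and the upper Clopper-Pearson bound is 3.97%. Ciliated cells, which do not divide, served as the background: 1 of 108 (0.926%, interval 0.0234 to 5.05) and 1 of 116 (0.862%) met the rule. The AT2, Endothelial and Fibroblast intervals, and the Immune interval of the CD45-positive library, overlap those of the ciliated cells, so the share alone does not set these classes above the background. The Immune share of the CD45-negative library lies above it over all 108 cells. Of these, 101 held at least 2 UMI of endothelial or 20 UMI of AT2 markers, with 18 of the 19 cycling cells among them. The limit left out most cells because the 108 cells had medians of 33.5 UMI of AT2 and 2 UMI of endothelial markers. Ciliated cells of that library had a median of 44.5 UMI of AT2 markers. The 7 cells left had a share of 14.3% (interval 0.361 to 57.9), which overlaps the background, but so few cells cannot place the share. The part of mixed barcodes in it was not tested.

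**Figure D1:**
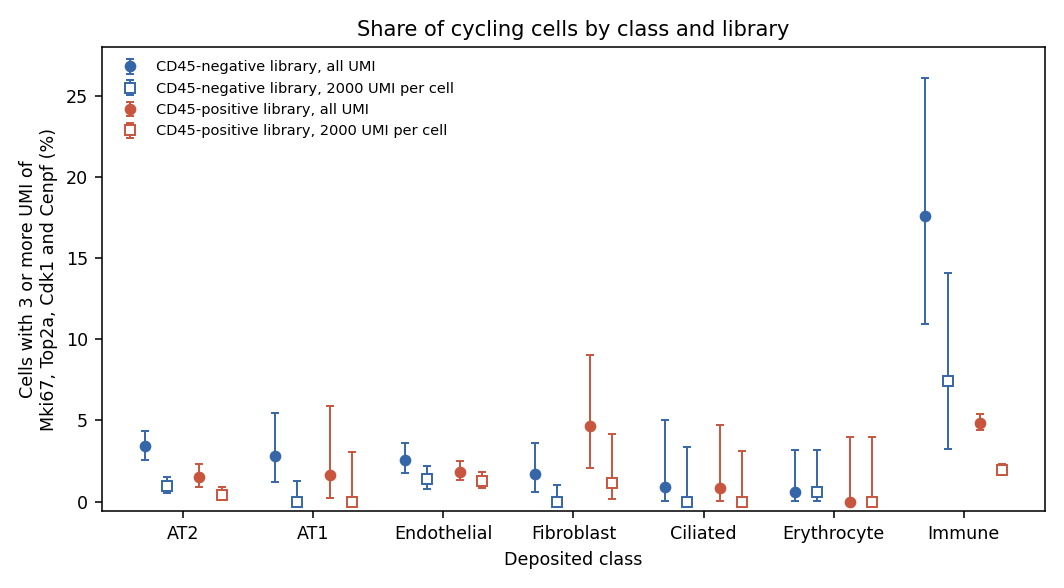
Percent of cells that met the rule of 3 UMI over Mki67, Top2a, Cdk1 and Cenpf, by deposited class and library, at full depth and after every cell was thinned to 2000 UMI; bars are exact Clopper-Pearson 95% intervals for counting error. Immune cells stand highest at both depths in both libraries (4.87% and 17.6% at full depth), and the AT2 and Endothelial cells of the CD45-negative library change order with the depth (3.40% and 2.56% at full depth).

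The cells that met the rule were deeper than the rest of their class. Median UMI was 11705 in cycling against 8107 in other AT2 cells of the CD45-negative library, 7752.5 against 6799 in its Endothelial cells, 5380.5 against 3142.5 in the Immune cells of the CD45-positive library, and 30321 against 13851 in the 8 cycling AT1 cells. After thinning every cell to 2000 UMI, 16 AT2 (0.954%), 17 Endothelial (1.36%) and 8 Immune cells (7.41%) of the CD45-negative library remained at 3 UMI or more, and 0 AT1 and 0 Ciliated cells did. Of the CD45-positive library, 145 Immune (1.95%), 27 Endothelial (1.24%) and 5 AT2 cells (0.378%) remained. The AT2 share of the CD45-negative library was above the Endothelial share before thinning and below it after, with overlapping intervals both times, so no order of these 2 classes is read from the shares.

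Summed over all cells, the G2/M genes had a wider range than the S genes outside the Immune and Erythrocyte classes. Levels are UMI per 1000000 UMI of the class (CPM). In the CD45-negative library the G2/M genes summed to 436 CPM in AT2, 268 in Endothelial, 181 in AT1, 157 in Fibroblast, 195 in Erythrocyte, 122 in Ciliated and 1539 in Immune cells. The S genes summed to 143, 160, 149.98, 145, 12.0, 81.9 and 646 CPM in the same order. In the CD45-positive library the G2/M sums were 302 CPM in AT2, 304 in Endothelial, 285 in AT1, 355 in Fibroblast, 159 in Erythrocyte, 104 in Ciliated and 665 in Immune cells, and the S sums 122, 165, 153, 172, 80.8, 78.5 and 245 CPM. Outside the Immune and Erythrocyte classes the S sums thus ran from 78.5 to 172 CPM and the G2/M sums from 104 to 436 CPM.

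AT2 cells of the CD45-negative library had 1.63 times the G2/M level of its Endothelial cells (interval 1.56 to 1.70) and 0.892 times the S level (interval 0.838 to 0.95). The G2/M ratio rests on few cells: the 10 AT2 cells with the most G2/M UMI held 41.5% of that class's G2/M UMI, and 1 cell of 91413 UMI held 951 of them (11.7%). The 10 top Endothelial cells held 46.4%, and without the 10 top cells of each class the levels were 261 and 145 CPM. The mean of per-cell CPM gave a ratio of 1.25 for the G2/M genes. Leaving out cells with 2 or more UMI of the leukocyte markers turned the G2/M ratio to 0.622, but kept only 145 of the 1249 Endothelial cells, because Srgn, which is 95.6% of the leukocyte-marker UMI of that class, was found in 1183 of them. With Srgn not counted, an option chosen after seeing the data, 40 Endothelial cells were left out and the ratio was 1.64.

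In the CD45-positive library Immune cells had 2.19 times the G2/M level of Endothelial cells (interval 2.11 to 2.28) and 1.48 times the S level (interval 1.40 to 1.57), and 2.21 and 2.01 times the levels of AT2 cells. The 10 cells with the most G2/M UMI held 5.31% of them in Immune, 28.3% in Endothelial and 35.7% in AT2 cells, and without these cells the levels were 633, 219 and 197 CPM. The 362 cycling Immune cells held 10602 of the 18311 G2/M UMI of their class. AT2 and Endothelial cells of that library had G2/M levels that did not differ beyond counting error (ratio 0.993, interval 0.939 to 1.05).

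The 4 genes of the rule followed the order of the sums in part. Mki67 stood at 10.8 CPM in AT2, 9.43 in Endothelial, 2.16 in Ciliated and 70.0 in Immune cells of the CD45-negative library, and at 7.39, 11.6, 1.15 and 25.2 CPM in the CD45-positive library. Top2a stood at 19.8, 21.8, 2.87 and 109 CPM in the first and 15.6, 27.8, 8.08 and 52.7 CPM in the second library. For both genes Immune cells were highest and Ciliated cells lowest of these classes. Cdk1 was at 24.2, 12.5, 2.87 and 81.7 CPM, and at 12.1, 10.2, 3.46 and 15.9 CPM. Cenpf was at 14.9, 15.3, 4.31 and 37.9 CPM, and at 10.1, 14.1, 0 and 18.2 CPM, where 0 is the count in the Ciliated cells of the CD45-positive library. Cdk1 was thus higher in AT2 than in Endothelial cells of the CD45-negative library, while Top2a and Cenpf were close to equal there.

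Of the 6 G2/M genes with the most UMI, Cks1b differed most between AT2 and Endothelial cells of the CD45-negative library. It stood at 78.4 CPM in AT2, 51.1 in AT1, 55.7 in Fibroblast and 16.1 in Endothelial cells of the CD45-negative library, and at 51.6, 67.8, 80.1 and 22.9 CPM in the CD45-positive library, so Endothelial cells were below these 3 classes in both. Cks2 stood at 54.8 CPM in AT2, 54.8 in AT1, 23.0 in Endothelial and 34.5 in Ciliated cells of the CD45-negative library, and its highest level in the CD45-positive library was 112 CPM in Immune cells. Cenpa was at 16.1 CPM in AT2 and 21.4 in Endothelial cells, and at 21.6, 33.1 and 69.0 CPM in AT2, Endothelial and Immune cells of the CD45-positive library. Birc5 was at 24.4 and 14.4 CPM, and at 14.4, 15.2 and 43.9 CPM. Immune cells exceeded the other 2 classes for each of the last 3 genes in the CD45-positive library.

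**Figure D2:**
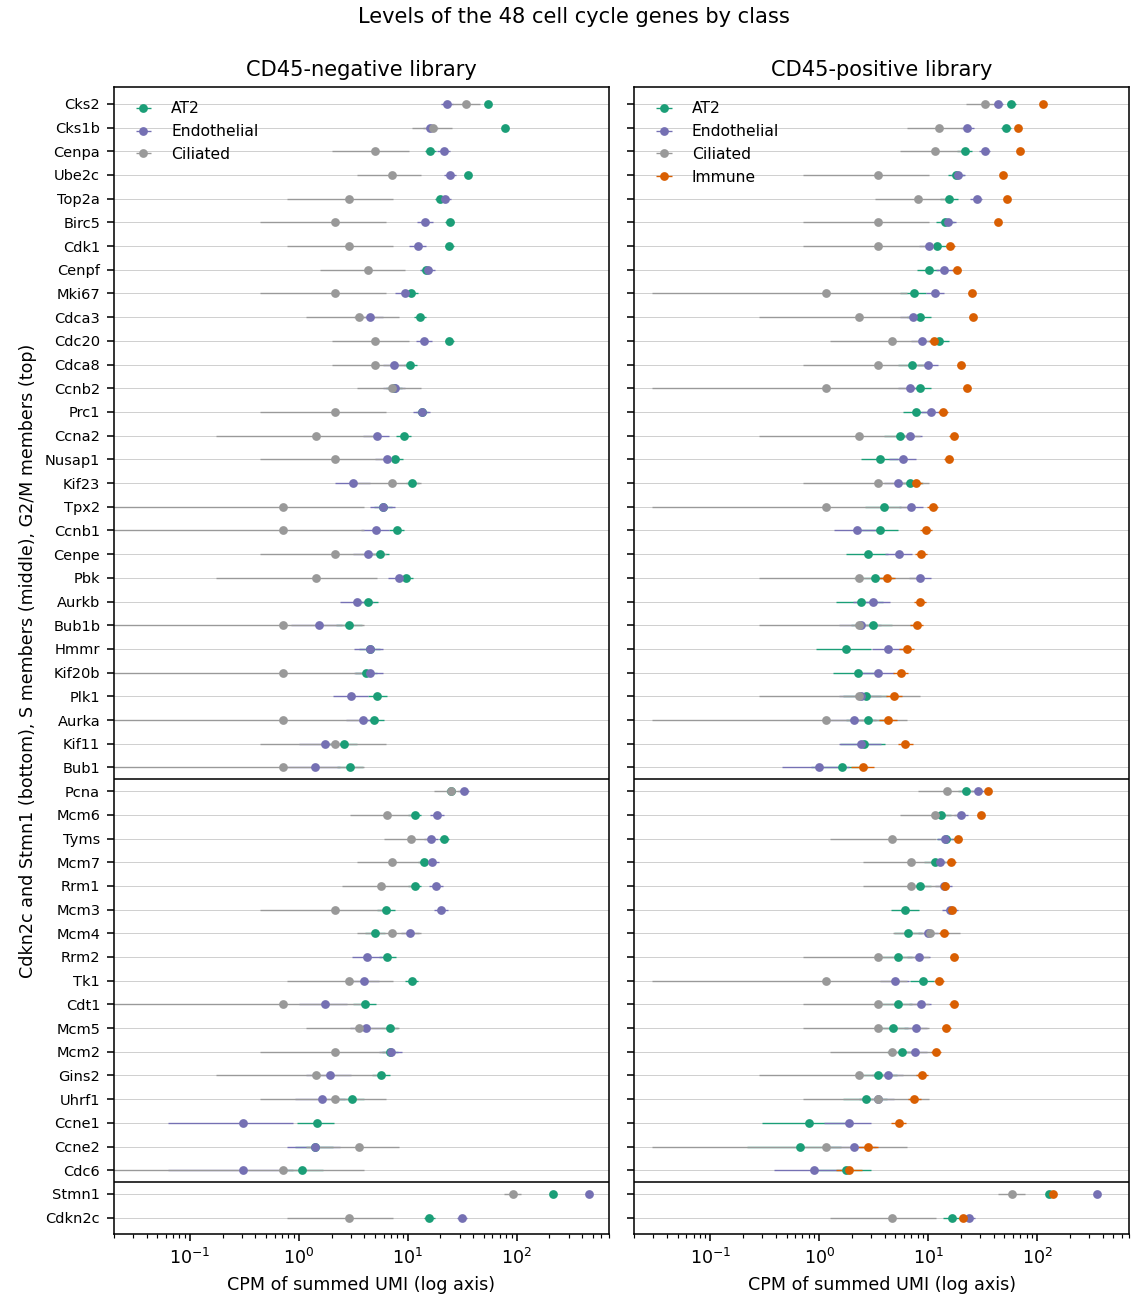
Level of each of the 48 genes in CPM (log axis) in AT2, Endothelial and Ciliated cells of both libraries and in Immune cells of the CD45-positive library, with exact Poisson 95% intervals for counting error; genes at 0 UMI in a class have no point. Cks1b and Stmn1 run in opposite directions between AT2 and Endothelial cells of the CD45-negative library (78.4 against 16.1 CPM and 215 against 463 CPM), while Top2a is close to equal (19.8 against 21.8 CPM).

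Erythrocytes had their own pattern. Ube2c stood at 107 CPM (134 UMI) in Erythrocyte cells of the CD45-negative library, against 35.5 in AT2, 24.4 in Endothelial and 7.18 in Ciliated cells, and at 53.9 CPM (18 UMI) in those of the CD45-positive library. It was detected in 38.5% of these Erythrocyte cells and in 2.78% of the Ciliated cells, at median depths of 6571 and 9270 UMI per cell. Nusap1, a microtubule-bundling protein, stood at 23.2 CPM there and at 2.16 CPM in Ciliated cells. Ube2c and Nusap1 held 71.5% and 15.6% of the G2/M UMI of the Erythrocyte cells that did not meet the rule. The S genes had 15 UMI in the class, beside 243 UMI of the G2/M genes. Erythroid markers made up 843512 CPM of this class, which lowers the CPM of every other gene in it. Its S sum of 12.0 CPM, the lowest of all groups, is therefore not read as a lower S level than in other classes.

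The S genes had flatter profiles outside the Immune class. In the 108 Immune cells of the CD45-negative library the S level was 4.52 times the AT2 level, beside 3.53 times for G2/M, with Pcna at 105, Tyms at 53.5 and Mcm6 at 47.6 CPM. These levels rest on few cells: the 10 top cells of each set held 65.7% of the S and 74.1% of the G2/M UMI. Without the 10 top cells the S level was 268 CPM in Immune and 115 in AT2 cells, and the G2/M level 484 and 261 CPM. Pcna stood at 24.8 CPM in AT2, 32.7 in Endothelial and 25.1 in Ciliated cells of the CD45-negative library, and at 22.0, 28.7 and 15 CPM in the CD45-positive library, where Immune cells had 35.3. Mcm6, a subunit of the MCM helicase, stood at 11.6 and 18.7 CPM in AT2 and Endothelial cells, and at 13.2, 19.9 and 30.3 CPM in AT2, Endothelial and Immune cells. Tyms, thymidylate synthase, was at 21.5 and 16.4 CPM, and at 14.6, 14.3 and 18.6 CPM. Mcm7 was at 14.0 and 16.7 CPM, and at 11.6, 13.0 and 16.3 CPM. Rrm1, the large subunit of ribonucleotide reductase, was highest in the Fibroblast class of both libraries outside Immune cells (28.6 and 26.0 CPM), and Rrm2, the small subunit, was at 2.92 and 3.25 CPM in the same cells.

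Stmn1 and Cdkn2c had an order of their own, led by Endothelial cells. Stmn1 stood at 463 CPM in Endothelial and 215 in AT2 cells of the CD45-negative library, and at 355 in Endothelial, 128 in AT2 and 141 in Immune cells of the CD45-positive library, against 92.7 and 58.9 CPM in Ciliated cells. It was detected in 88.4% of Endothelial and 65.7% of AT2 cells of the CD45-negative library. Cdkn2c stood at 31.5 and 15.8 CPM in Endothelial and AT2 cells, and at 23.5, 16.4 and 20.8 CPM in Endothelial, AT2 and Immune cells. The Endothelial level in the CD45-positive library was 2.52 times the Immune level for Stmn1 (interval 2.40 to 2.64) and 1.13 times for Cdkn2c (interval 0.959 to 1.32).

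Taking each member to the class where it was highest, among classes of at least 300 cells, gave AT2 for 24 of the 29 G2/M genes in the CD45-negative library and Endothelial for 5 (Ccnb2, Cenpa, Cenpf, Kif20b and Top2a). The S genes divided otherwise, with 7 highest in AT2, 7 in Endothelial (Ccne2, Mcm2, Mcm3, Mcm4, Mcm6, Mcm7 and Pcna) and 3 in Fibroblast (Cdt1, Gins2 and Rrm1). Immune cells of the CD45-positive library were highest for 27 of 29 G2/M and 17 of 17 S genes. The exceptions were Cdc20, an activator of the anaphase-promoting complex, with 12.6 CPM in AT2 and 11.4 in Immune cells, and Pbk, a mitotic kinase, with 8.42 CPM in Endothelial and 4.14 in Immune cells.

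Called as at least 2-fold over all genes with 50 UMI or more, AT2 exceeded Endothelial cells of the CD45-negative library in 5 of 29 G2/M genes and 3 of 14 S genes tested, where 13.1% of all genes were that much higher. The 5 were Bub1 (ratio 2.09), Kif23 (3.51), a motor of the central spindle, Cdca3 (2.93), Cks1b (4.86, interval 4.12 to 5.76) and Cks2 (2.38), and the 3 were Tk1 (2.75), thymidine kinase, Gins2 (2.96), part of the replicative helicase, and Cdt1 (2.34), which loads MCM proteins. Mcm3 (ratio 0.313) and Mcm4 (0.475) and also Stmn1 (0.465) were lower, where 33.6% of all genes were. The median log2 ratio was 0.50 over the G2/M genes, 0.19 over the S genes and -0.61 over all genes.

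Immune exceeded Endothelial cells of the CD45-positive library 2-fold in 17 of 29 G2/M genes, led by Cdca3 (3.56), Ccnb2 (3.29) and Bub1b (3.22), and in 7 of 17 S genes, led by Ccne1 (2.84) and Tk1 (2.53), where 10.6% of all genes were that much higher. Pbk (0.492) and Stmn1 (0.397) were lower, where 23.2% of all genes were. Against AT2 cells, Immune cells were higher in 18 of 29 G2/M and 11 of 17 S genes, where 16.4% of all genes were, and lower in 0, where 16.7% of all genes were.

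Between the libraries as wholes, 0 members were 2-fold higher in the CD45-negative library, where 17.9% of all 13190 genes tested were. In it 5 of 29 G2/M genes and 4 of 17 S genes were 2-fold lower, where 9.56% of all genes were. They were Cenpa (16.1 against 50.7 CPM), Top2a (18.3 against 39.3), Ccnb2, Bub1b, Kif11, Cdt1 (4.53 against 13.0), Ccne1, Rrm2 and Uhrf1. Stmn1 (256 against 176 CPM), Cdc20 (15.8 against 10.9), Pbk (7.12 against 4.68) and Cdk1 (17.2 against 14.0) leaned the other way. The share of Immune cells, 2.73% against 65.1%, differed between the libraries alongside these ratios, and its part in them was not tested.

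The rest of the cell cycle machinery was read as 89 further genes in 8 lists. Between the libraries, 3 of 6 genes of CDK inhibitors were 2-fold higher in the CD45-negative library, where 17.9% of all genes were: Cdkn2b (39.8 against 12.9 CPM), Cdkn2a (56.4 against 21.2 CPM) and Cdkn1c (39.2 against 17.6 CPM). The D cyclins, which start G1, divided: Ccnd1 was higher there (278 against 118 CPM) and Ccnd2 lower (94.9 against 258 CPM). Of 21 replication genes tested 5 were lower, and of 17 condensin and spindle genes 3 were, where 9.56% of all genes were.

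Inside the cells called cycling the members stood above the rest of the class by construction, because 4 of them made the rule and a low gene passed the filter of 50 UMI through those cells; the ratios are a description. In the AT2 cells of the CD45-negative library 28 of 28 G2/M and 14 of 14 S genes that passed the filter were at least 2-fold higher in cycling cells, where 9.61% of all genes were. In the Endothelial cells of that library 18 of 18 G2/M but 5 of 8 S genes were, where 5.57% of all genes were. In the CD45-positive library the counts were 15 of 15 and 6 of 6 in AT2 (11.8% of all genes), 18 of 18 and 11 of 11 in Endothelial (6.75%) and 29 of 29 and 17 of 17 in Immune cells (5.51%). No member was 2-fold lower in cycling cells of these 5 groups, where 6.07% of all genes were in AT2 and 11.8% in Endothelial cells of the CD45-negative library, and 12.4% in AT2, 13.2% in Endothelial and 4.53% in Immune cells of the CD45-positive library.

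The G2/M genes outside the rule went from 132 CPM in other AT2 cells of the CD45-negative library to 4216 in cycling ones, from 52.6 to 5195 in its Endothelial cells, from 116 to 4608 in the Endothelial cells of the CD45-positive library, from 269 to 3980 in its Immune cells and from 158 to 4049 in its AT2 cells. The S genes went from 87.6 to 1049 CPM, from 144 to 691, from 144 to 909.5, from 185 to 968 and from 105 to 779 in the same order. The 19 cycling Immune cells of the CD45-negative library had 4455 CPM of G2/M and 1940 CPM of S genes. Cycling Endothelial cells of the CD45-negative library had the highest G2/M level and, at 691 CPM, the lowest S level of these 6 groups, but the S interval (600 to 791) overlapped that of the 20 cycling AT2 cells of the CD45-positive library (658 to 916).

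**Figure D3:**
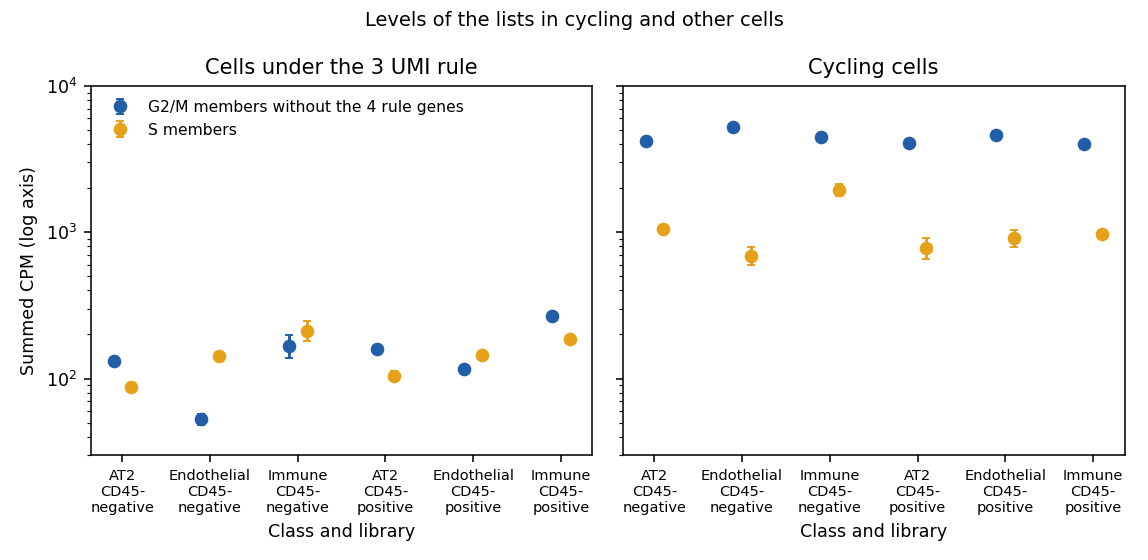
Summed level of the 25 G2/M genes outside the rule and of the 17 S genes in CPM (log axis), in cycling cells and in the other cells of each class and library, with exact Poisson 95% intervals for counting error. The gap between the states is wider for G2/M than for S genes in every group drawn, and in Endothelial cells of the CD45-negative library it runs from 52.6 to 5195 CPM for G2/M and from 144 to 691 CPM for S genes.

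Single members show the same contrast, Top2a and Cdk1 as genes of the rule. In AT2 cells of the CD45-negative library Top2a was at 320 CPM in cycling and 1.54 in other cells (341 and 27 UMI), Cdk1 at 371 and 3.03, Ube2c at 539.9 and 4.74, and Rrm2 at 97.5 and 0.972 CPM. Cks1b was at 495 and 53.0 CPM, Cks2 at 469 and 29.6, Kif23 at 98.4 and 5.72, and Pcna at 112 and 19.6 CPM. The ratio was therefore 207 for Top2a and 100 for Rrm2, but 9.34 for Cks1b and 5.70 for Pcna.

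In Endothelial cells of the same library, Mcm6 was at 23.4 CPM in cycling and 18.5 in other cells, a ratio of 1.26 (interval 0.5 to 2.65). Mcm4 (ratio 1.61) and Mcm3 (1.86) also stayed under 2-fold, and Pcna was at 73.4 and 31.4 CPM (2.34). Rrm2 (36 UMI in cycling and 6 in other cells) and Tk1 (30 and 9 UMI) went with the G2/M genes there, although neither passed the filter of 50 UMI. Stmn1 was at 1765 and 422 CPM (4.18) and Cdkn2c at 324 and 22.4 CPM (14.5). In Immune cells of the CD45-positive library Stmn1 had the wider gap, 1078 against 63.2 CPM (17.1), and Cdkn2c the narrower, 72.5 against 16.5 CPM (4.39).

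Where a gene's UMI lie follows in part from the rule, which picks cells by G2/M genes, so these shares are a description. Over members with at least 20 UMI, and without the 4 rule genes, the median percent of a G2/M gene's UMI found in cycling cells was 82.6 in AT2 and 84.6 in Endothelial cells of the CD45-negative library, and 64.3 in Endothelial, 69.5 in Immune and 55.3 in AT2 cells of the CD45-positive library. For S genes the medians were 46.6, 9.09, 12.2, 26.5 and 17.7. Cycling cells held 5.75, 3.04, 2.75 and 7.67 percent of all UMI of the first 4 of these groups. In Endothelial cells of the CD45-negative library Mcm6 (3.80 percent), Mcm4 (4.81), Mcm3 (5.50) and Pcna (6.83) lay close to that share, while Rrm2 (85.7) and Tk1 (76.9) did not. The lowest G2/M genes were Cks1b in AT2 cells of the CD45-negative library (36.3 percent) and Cks2 in Immune cells (30.6 percent).

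**Figure D4:**
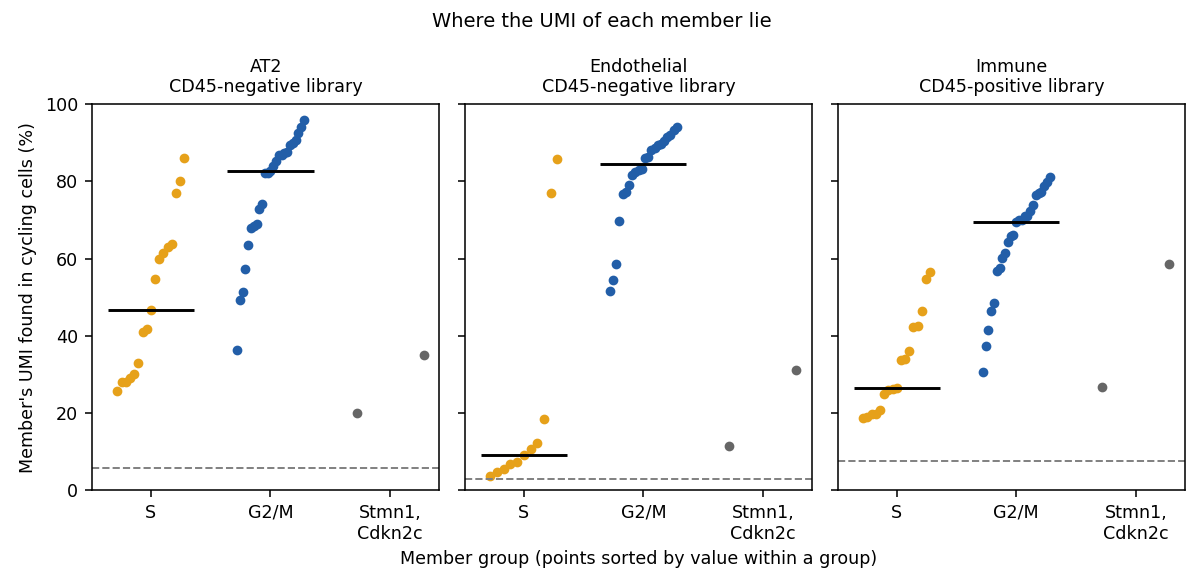
Percent of each member's UMI that lay in cycling cells, 1 point per member with at least 20 UMI, in AT2 and Endothelial cells of the CD45-negative and Immune cells of the CD45-positive library, for S genes, G2/M genes outside the rule, and Stmn1 and Cdkn2c; solid lines are medians and the dashed line is the percent of all UMI held by cycling cells. G2/M medians lie between 69.5 and 84.6 and S medians between 9.09 and 46.6, with the S genes of Endothelial cells nearest the dashed line.

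In some classes a few members gave most of the G2/M UMI left outside the cycling cells. In AT2 cells of the CD45-negative library, Cks1b gave 37.3% and Cks2 20.8% of the G2/M UMI outside cycling cells, and Cks1b was detected in 33.9% of those cells. In Fibroblast cells Cks1b gave 55.4%, and in AT1 cells Cks2 gave 34.0% and Cks1b 29.8%. Endothelial cells had no such leader, with Cenpa at 16.9%, Cks2 at 16.6% and Cks1b at 13.6%. In Immune cells of the CD45-positive library Cks2 gave 27.8%, Cenpa 15.4% and Cks1b 12.1%. Pcna led the S genes outside cycling cells, with 22.3% in AT2 and 21.9% in Endothelial cells.

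Compared outside the cycling cells of the CD45-negative library, AT2 exceeded Endothelial cells 2-fold in Cks1b (53.0 against 8.06 CPM, ratio 6.58, interval 5.21 to 8.41), Cks2 (29.6 against 9.83), Prc1 (4.57 against 1.57), Tk1 (4.17 against 0.942) and Cdt1 (3.09 against 1.46). Kif23 had 100 and 3 UMI, a ratio of 18.2 with an interval of 6.06 to 89.8. These were 4 of the 8 G2/M genes outside the rule and 2 of the 12 S genes that passed the filter, where 13% of all genes were that much higher. A low gene could pass the filter through AT2 cells alone, as Kif23 did, so these counts are a description. Mcm3 (3.60 against 19.8 CPM), Mcm4 (3.77 against 10.4), Rrm1 (7.26 against 16.7), Mcm6 (8.57 against 18.5) and Stmn1 (148 against 422) were 2-fold lower, where 34.8% of all genes were. The lower S genes were 4 of 12 tested, which is near the share of all genes. The median log2 ratio was -0.51 over the S genes and -0.65 over all genes, so the S set was not lower than genes in general. Non-cycling AT2 cells thus carried more Cks1b and Cks2 transcripts than non-cycling Endothelial cells.

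Outside the cycling cells of the CD45-positive library, Immune cells exceeded Endothelial cells 2-fold in 13 of 22 G2/M genes outside the rule and 3 of 16 S genes (Ccne1, Rrm2 and Tk1), where 10.3% of all genes were that much higher, and Stmn1 was lower, where 23.6% of all genes were. Against AT2 cells they were higher in 12 of 21 such G2/M and 10 of 16 S genes, where 15.6% of all genes were, and 0 members were lower, where 16.9% of all genes were. Cenpa stood at 46.7 CPM in these Immune cells and was among the higher genes in both comparisons.

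Among cycling cells of the CD45-negative library, 7 of 27 G2/M genes (5 of 23 outside the rule) were 2-fold lower in AT2 than in Endothelial cells and 0 were higher, where 20.5% and 13.7% of all 3752 genes tested were. The lower genes were Prc1 (162 against 394 CPM), which bundles the central spindle, Tpx2 (75.0 against 174), Cenpf (199.6 against 460.5), Kif20b (49.7 against 113), Ccnb2 (108 against 224), Top2a (319.6 against 654) and Cenpa (190.3 against 384), of which Cenpf and Top2a belong to the rule. The count of lower G2/M genes is near the share of all genes. Of 10 S genes 3 were higher: Mcm5 (71.2 against 16.7 CPM, ratio 4.27, interval 1.75 to 13.5), Mcm6 (60.9 against 23.4) and Gins2 (58 and 2 UMI, ratio 8.15, interval 2.16 to 68.9). The cycling AT2 cells were more numerous and deeper than the cycling Endothelial cells. A low gene could pass the filter through them alone, as Gins2 did, so this count is a description. Cdkn2c was at 55.3 CPM in cycling AT2 and 324 in cycling Endothelial cells, a ratio of 0.171 (interval 0.121 to 0.239).

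In the CD45-positive library the cycling Immune cells had less Pbk than cycling Endothelial cells (38.4 against 266 CPM, ratio 0.145, interval 0.103 to 0.203), and also less Prc1 (116 against 274), Cenpf (200.4 against 431), Kif20b (30.3 against 64.4) and Cdkn2c (72.5 against 262). Ccnb1, a mitotic cyclin, was higher (100 against 40.2 CPM). These were 4 lower and 1 higher of 29 G2/M genes, where 15% and 11.9% of all genes were, and 0 of 14 S genes differed 2-fold. Lower G2/M genes were near the share of all genes here too, and Cenpf belongs to the rule. Against cycling AT2 cells, cycling Immune cells had less Cdc20 (89.1 against 309 CPM), Pbk, Aurka and Kif23, which were 4 of 29 G2/M genes where 9.85% of all genes were 2-fold lower. Mcm2 alone of 14 S genes was higher (81 and 3 UMI, ratio 2.40, interval 0.792 to 11.9), where 19.7% of all genes were. In this library 37 of the 40 cycling Endothelial and 17 of the 20 cycling AT2 cells held at least 2 UMI of leukocyte markers. So did 94.1% of all Endothelial and 82.4% of all AT2 cells, and the part of leukocyte RNA in these ratios was not tested.

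At an equal depth of 2000 UMI, cycling cells were divided by whether they held at least 2 UMI of S genes and at least 2 of the G2/M genes outside the rule. Of 16 AT2 cells of the CD45-negative library, 11 had both and 5 had G2/M only. Of 17 Endothelial cells, 6 had both and 11 had G2/M only, so 35.3% had S transcripts (interval 14.2 to 61.7), and in the CD45-positive library 9 of 27 did (33.3%). Of 145 Immune cells, 74 had both, 67 G2/M only, 3 S only and 1 neither (53.1% with S, interval 44.6 to 61.4). These intervals overlap, so the classes were not distinguishable at this depth. The rule picks G2/M genes and can miss cells with S transcripts. Of 7438 Immune cells of the CD45-positive library, 96 (1.29%) had 3 or more S UMI and 0 UMI of the 4 rule genes. So did 9 of 1677 AT2 cells of the CD45-negative library (0.537%). These cells had a median of 1 UMI (Immune) and 2 UMI (AT2) of the G2/M genes outside the rule, so not all held S transcripts alone.

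Genes that are not members but had the highest ratios in cycling cells were of the same kind. In CD45-negative AT2 cells they were Iqgap3, Sgol1, a guardian of centromere cohesion, Esco2, a cohesin acetyltransferase, the histone gene Hist1h2ap, Mxd3, Ckap2l, 2810417H13Rik and Ckap2. In Immune cells of the CD45-positive library they were Kif2c, Mxd3, Esco2, Fam64a, Ska1, Aspm, Kif4 and Sapcd2, with Esco2 and Mxd3 in both. Of the further lists, 20 of 21 replication genes, 17 of 17 condensin and spindle genes and 10 of 10 chromatin and tubulin genes were 2-fold higher in cycling Immune cells of the CD45-positive library, where 5.51% of all genes were. H2afz, a histone variant, stood at 2739 against 763 CPM, Tubb5, a tubulin, at 1524 against 324, Smc4 of condensin at 323 against 72.6, and Dut, which removes dUTP, at 237 against 63.8 CPM.

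Fewer genes of G1 control were higher in cycling cells. In the same cells 1 of 6 G1 cyclins and kinases (Cdk2), 1 of 6 CDK inhibitors (Cdkn2d), 5 of 11 RB and E2F genes and 4 of 7 MuvB, B-MYB and FOXM1 genes (Foxm1, Mybl2, Lin9 and Lin54) were 2-fold higher, where 5.51% of all genes were. Ccnd2 stood at 263 CPM in cycling and 322 in other cells, Ccnd3 at 116 and 119, and Cdkn1a, the p53 target that halts G1, at 166 and 148 CPM. In AT2 cells of the CD45-negative library Cdk4, Cdk6 and Cdkn2d were the members of these 2 G1 lists that were 2-fold higher in cycling cells, where 9.61% of all genes were. Ccnd1 stood there at 357 and 258 CPM and Cdkn1a at 97.5 and 112 CPM. Cycling Endothelial cells of that library had more Cdkn2d (290.4 against 52.8 CPM) and less Cdkn1c (26.7 against 86.8 CPM), the p57 inhibitor.

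Cycling immune cells of the CD45-positive library were spread over several cell types. Clusters were made without the members and were named from marker lists. Treg-like cells, marked by Foxp3, Il2ra and Ctla4, had 39 cycling cells of 269 (14.5%, interval 10.5 to 19.3). Alveolar macrophage-like cells had 103 of 1123 (9.17%, interval 7.55 to 11), plasma cell-like cells 57 of 872 (6.54%) and C1q macrophage-like cells 27 of 608 (4.44%). T cell-like cells outside the Treg-like cluster had 30 of 1197 (2.51%), neutrophil-like cells 12 of 627 (1.91%), B cell-like cells 18 of 1003 (1.79%), dendritic cell-like cells 1 of 70, monocyte-like cells 0 of 134 and mast cell or basophil-like cells 0 of 26. A further 1509 cells in 8 clusters stayed unnamed and held 75 cycling cells, of which 51 lay in a cluster of 74 cells led by cell cycle genes.

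Neutrophils do not divide in tissue, and the share of 1.91% in neutrophil-like cells (interval 0.993 to 3.32) is the background for the class. The intervals of C1q macrophage-like (2.95 to 6.40), T cell-like (1.70 to 3.56) and B cell-like cells (1.07 to 2.82) overlap it. So do those of the dendritic cell-like, monocyte-like and mast cell or basophil-like cells. The share alone does not set these types above the background. After thinning to 2000 UMI the shares were 4.83% in Treg-like, 3.92% in alveolar macrophage-like, 2.52% in plasma cell-like, 2.14% in C1q macrophage-like and 0.797% in neutrophil-like cells. At this depth the plasma cell-like interval (1.59 to 3.79) overlapped the neutrophil-like one (0.259 to 1.85) as well. The cycling neutrophil-like cells had neutrophil markers at 5831 CPM against 12028 in the others of that type, and the cycling plasma cell-like cells had plasma cell markers at 35296 against 119005 CPM. The 39 cycling Treg-like cells had T cell markers at 2734 against 4320 CPM in the others of that type and Treg markers at 2587 against 2857 CPM, with plasma cell markers at 1405 against 769 and neutrophil markers at 928 against 353 CPM. No doublets were removed, and the part of mixed barcodes in these shares was not tested.

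**Figure D5:**
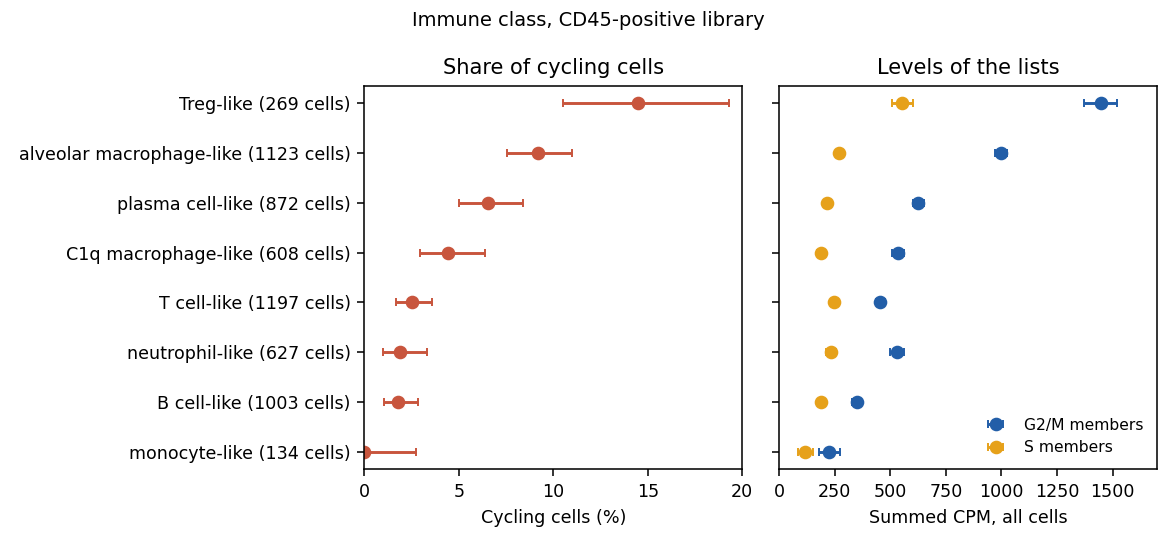
Percent of cycling cells and the summed G2/M and S levels (CPM) by named immune cell type of at least 100 cells in the CD45-positive library, with exact 95% intervals for counting error. Treg-like cells stand highest (14.5%, 1445 and 553 CPM), followed by alveolar macrophage-like cells (9.17%, 998 and 270.5 CPM).

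The Treg-like share depended on how the clusters were drawn. It was 9.53% of 661 cells at a clustering resolution of 0.5 and 5.42% of 240 cells at 2.0, where alveolar macrophage-like (9.78%) and plasma cell-like cells (6.56%) stood above it. When the genes that follow the members were also left out of the clustering, an option added after seeing the data, it was 11.5% of 261 cells, while alveolar macrophage-like cells had 103 of 1117 and T cell-like cells 40 of 865 (4.62%). Treg-like cells thus had the highest share of the named types in both clusterings at resolution 1.0 but not at 2.0. At 1.0 their interval overlapped that of alveolar macrophage-like cells in both (10.5 to 19.3 against 7.55 to 11, and 7.89 to 16.0 against 7.59 to 11.1). No order of these 2 types is therefore read from the shares.

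The sums had the order of the shares for the Treg-like and alveolar macrophage-like cells, and in part below them. G2/M genes summed to 1445 CPM in Treg-like, 998 in alveolar macrophage-like, 625 in plasma cell-like, 533 in C1q macrophage-like, 530.4 in neutrophil-like, 456 in T cell-like and 349 CPM in B cell-like cells. S genes summed to 553, 270.5, 217, 186, 232, 248 and 190.4 CPM in that order, so T cell-like and neutrophil-like cells stood above plasma cell-like cells in S and below them in G2/M. Mki67 was at 68.1 CPM in Treg-like, 34.2 in alveolar macrophage-like, 36.1 in plasma cell-like, 16.6 in T cell-like and 9.54 in B cell-like cells. Mcm6 had another order, at 79.8, 21.4, 30.1, 42.8 and 29.8 CPM. Stmn1 was at 354, 204, 92.8, 100 and 66.8 CPM, and was highest in Treg-like cells too.

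Cks2 left the order of the other G2/M genes. It stood at 178 CPM in Treg-like, 156 in alveolar macrophage-like and 201 in neutrophil-like cells, against 59.0 in B cell-like and 88.9 in T cell-like cells. In the 26 mast cell or basophil-like cells, none of which met the rule, Cks2 reached 654 CPM (51 UMI, interval 487 to 860.4), while Mki67 there had 1 UMI. Most of the G2/M sum of 847 CPM in these cells was thus Cks2.

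Sub-clusters of the AT2 class, made without the members, held cycling cells unevenly. A sub-cluster led by 1700049E15Rik, Muc5b, Gzme, Tff1, Pbk and Agr2 had 39 cycling cells of 103 in the CD45-negative library (37.9%, interval 28.5 to 48) and 9 of 39 in the CD45-positive library (23.1%, interval 11.1 to 39.3). Its G2/M and S levels were 3001 and 599 CPM, and 1852 and 329.6 CPM. Pbk, a member left out of the clustering, and Mxd3 were among its leading genes. With the genes that follow the members left out as well, a sub-cluster led by Mcpt2, Muc5b, Tff1 and Agr2 had 11 of 67 in the CD45-negative library (16.4%, interval 8.49 to 27.5). Muc5b is an airway mucin, and Tff1 and Agr2 are secreted by mucous cells.

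The other AT2 sub-clusters of the CD45-negative library held few. The largest, led by Cp, Cd177 and Cthrc1, had 3 of 543 (0.552%, G2/M level 131 CPM), and 1 led by Ntm, Rtkn2 and Cldn4 had 6 of 258 (2.33%, 186 CPM). The sub-clusters led by Cox6a2 and ribosomal pseudogenes and by Lyz1 and Cbr2 had 0 of 327 and 0 of 222, with G2/M levels of 171 and 47.2 CPM and S levels of 53.0 and 50 CPM. The sub-cluster led by endothelial genes had 9 of 185. Cks1b in non-cycling cells followed this division, at 121 CPM in the 64 non-cycling cells of the Muc5b-led sub-cluster, 104 in the Cox6a2-led, 48.7 in the Cp-led and 18.0 in the Lyz1-led sub-cluster. The Cox6a2-led cells thus had 0 cycling cells and a Cks1b level close to that of the sub-cluster with the most.

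In the Endothelial class, 23 of 23 cells of the CD45-negative and 23 of 24 of the CD45-positive library in 1 sub-cluster met the rule, and that sub-cluster was led by cell cycle genes (Fam64a, Casc5, Pbk and Neil3). Outside it the sub-clusters of the CD45-negative library with at least 50 cells had G2/M levels of 54.6 to 227 CPM and S levels of 138 to 179 CPM. Stmn1 in their non-cycling cells ranged from 247 CPM in the sub-cluster led by Ackr1 to 542 in that led by Atp13a3, Plat and Sox17, with 385 in that led by Car4 and Ednrb. Stmn1 was therefore present across endothelial sub-clusters that had few or no cycling cells.

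Identity markers differed between the states. In AT2 cells of the CD45-negative library, the 7 AT2 markers summed to 84680 CPM in cycling and 165440 CPM in other cells, and AT1 markers to 2895 and 2745 CPM. Leukocyte markers summed to 50.6 and 61.1 CPM, and Ptprc had 0 UMI in the 57 cycling cells. In Endothelial cells of that library the endothelial markers summed to 6009 CPM in cycling and 9206 CPM in other cells, and AT2 markers to 6509.9 and 4882 CPM. Ptprc had 0 UMI in these 32 cycling cells as well. In Endothelial cells of the CD45-positive library leukocyte markers summed to 2383 CPM in cycling and 2808 CPM in other cells, and endothelial markers to 4713 and 5852 CPM. In Immune cells of that library leukocyte markers summed to 5838 and 6683 CPM and AT2 markers to 1937 and 2420 CPM. The part of other cell types' RNA in the cycling levels was not tested.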

How the data were processed

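Single cells of 2 libraries were profiled with a droplet 3′ kit. Per the labels' design text, each channel took 6000 cells, reads were 98 bases long, and Cell Ranger 1.1.0 aligned them to mm10 and merged reads of 1 UMI. The authors deposited raw UMI counts for 17790 genes and 15389 cells and a table of cells with library and class; totals matched in all cells. The name LucOS in the cell labels is unexplained. The CD45-positive library has more cells than were loaded per channel. The sources used here do not say how the classes were made. Library totals were 40873786 and 47477407 UMI; the least deep cells had 4646 and 2204.

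Every deposited cell entered, and doublets were not removed. Counts were summed per class and library. Intervals at 95% are exact: Poisson for CPM, Clopper-Pearson for shares and conditional binomial for ratios; 0 UMI is read as fewer than 3 counts. Calls mean 2-fold, over genes with at least 100 UMI between whole libraries or 50 UMI in every other contrast. The UMI of both groups were added for this filter. A gene could thus pass through the group where it was high, and counts of called members are a description. Cycling contrasts needed 20 cycling cells. Thinning to 2000 UMI dropped 0 cells. Leiden clusters came from igraph 0.11.9 through scanpy 1.11.5 (resolution 1.0 for Immune and 0.5 for AT2 and Endothelial, 2000 variable genes without the members and the 89 further genes, 30 components, 15 neighbours), and named from 20 marker lists. Scripts ran on Python 3.11.15 with scipy 1.17.1, numpy 2.4.6, matplotlib 3.10.9 and pandas 2.3.3. Ratios were tested on simulated data.

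Named in full are the rule genes, the 6 members with the most and 3 with the fewest UMI in each set, Stmn1, Cdkn2c and members that differ from their set; of other genes, the 8 with the highest ratio in cycling cells and up to 3 examples per list. Members and lists were chosen with earlier results of these data known. Alternatives changed the rule's threshold and genes, depth, filters, weighting, scaling, mixed barcodes and clustering. Promoters came from RefSeq; no window was found for Ccna2, Pbk, Tpx2, Aurkb, Ccne2, Mcm4, Gins2 and Stmn1.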

Additional observations from a re-analysis of the deposited data

How the results depend on the processing

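No paired analysis was possible because each fraction was 1 library. Of 83 values recomputed for the main comparisons, 47 kept their direction and size, 35 moved and 1 reversed. The cause was not tested where no construction is named. The share of cycling AT2 cells of the CD45-negative library (3.40%) was 4.83% and 2.50% with a threshold of 2 and 5 UMI, and 0.954% and 0.239% at depths of 2000 and 1000 UMI. The Endothelial share was 1.36% and 1.04% at these depths, and 4.83% with barcodes of another lineage left out; in the CD45-positive library it was 1.24% and 0.645%, and 1.31% without the deepest 5% of cells. The Immune share of that library (4.87%) was 6.70% and 3.05% at 2 and 5 UMI, 1.95% and 0.605% by depth, and 3.51% without the deepest 5%. Thinned and lower-threshold shares change by construction. AT2 over Endothelial was 1.25 for G2/M and 0.737 for S genes by mean per-cell CPM, 0.622 (the reversal) and 0.663 without barcodes of another lineage, and 1.56 for G2/M without Cks2. Immune over Endothelial was 1.95 for G2/M by mean per-cell CPM, and 1.65 for S without mixed barcodes, or 1.72 with Srgn not counted (chosen after seeing the data). Members 2-fold lower in the CD45-negative library numbered 9, but 5 of 36 with 500 UMI or more and 15 of 48 after division by the median ratio of 1.19. Members higher in cycling cells numbered 9 of 9 in AT2 and 5 of 7 in Endothelial cells of the CD45-negative library and 4 of 5 and 9 of 13 in those of the CD45-positive library after thinning, and 17 of 17, 6 of 7, 3 of 3 and 6 of 6 with at least 200 UMI, where fewer genes passed. The Treg-like share was 9.53% and 5.42% at resolutions of 0.5 and 2.0. Immune cycling cells with S transcripts were 17.8% at 1000 UMI. At 2000 UMI the median S count per cycling cell was 2.5 in AT2 and 1 in Endothelial cells of the CD45-negative library and 2 in Immune cells of the CD45-positive library, so the division by S transcripts rests on few counts.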
